A study of Homo sapiens with 2 samples.

Results

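The oxidative phosphorylation genes examined here encode nuclear subunits of complexes I, III, IV and V, and they were taken by symbol from the annotation of the HG-U133 Plus 2.0 array. A probe set, a group of short probes that reads 1 transcript target, was kept when it was annotated to a single gene with an NDUFA, NDUFB, NDUFC, NDUFS, NDUFV, UQCR, COX or ATP5 subunit symbol, and pseudogenes, antisense genes and NDUFAF assembly factors were left out. This gave 73 genes of 19775, read by 140 of 41091 probe sets: 32 genes of complex I, 6 of complex III, 17 of complex IV and 18 of complex V. They lie on 22 chromosomes, with at most 11 on 1 chromosome.

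SU-DHL-1 is a permanent cell line from an anaplastic large cell lymphoma (ALCL), a T-lineage lymphoma, and carries the NPM1-ALK fusion. The cells were electroporated with siRNA against the NKL homeobox gene HLX (siHLX) or with a negative control siRNA (siCTR), and total RNA of each was labelled and hybridised to 1 array. The comparison asks which genes respond to HLX knockdown. It rests on 1 cell line and 1 culture per siRNA on the arrays, so there was no replicate error, no test between the siRNAs was possible, and all values describe these 2 arrays.

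HLX itself was at 7.70 with siHLX and 8.15 with siCTR, a difference of -0.45. Levels are log2 intensities, and a difference is siHLX minus siCTR, so that 1 is 2-fold. HLX transcript thus fell by less than 2-fold. Over all probe sets of single genes at levels from 6 to 8 the SD of the difference was 0.27. With this partial fall, small differences in other genes cannot be read as a lack of response to loss of HLX. The markers chosen for ALCL were TNFRSF8, ALK, IRF4, BATF3, JUNB, STAT3, IL2RA, PRF1 and GZMB. All 9 lay at level 8 or more on average. Their median was 12.26 with siHLX and 12.20 with siCTR, and their summed levels were 103.61 with siHLX and 103.87 with siCTR. T-cell surface genes outside this list were mixed, with CD3D at 10.855 but CD3E at 5.775, CD4 at 5.795, CD5 at 7.365 and CD7 at 5.355. The markers chosen for other cells were low. Of these, 1 of 10 striated muscle genes, 2 of 9 testis genes, 2 of 3 B cell genes and 1 of 4 myeloid genes passed 4.865. This value is the median level of the array and was used as the threshold. None of these markers reached level 8. The myeloid list held only CD14, LYZ, CSF1R and MPO, and some myeloid genes outside it were brighter, such as CD163 at 9.37 and CLEC4D at 9.64. Quantile normalisation had given both arrays the same distribution of values, and a difference is therefore measured against the bulk of the transcripts.

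Oxidative phosphorylation takes place in the inner mitochondrial membrane. Complex I (NADH dehydrogenase) passes electrons from NADH to ubiquinone, complex III (cytochrome bc1) passes them on to cytochrome c, and complex IV (cytochrome c oxidase) hands them to oxygen. All 3 pump protons, and complex V (ATP synthase) lets the protons flow back through a rotating ring of c subunits to make ATP. Some subunits are encoded by mitochondrial DNA, but most come from nuclear genes whose promoters are known for binding sites of NRF1, of the ETS factor GABPA (also called NRF2) and of YY1.

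To show what these promoters share, the window of 250 bases before to 50 bases after the start of each gene was searched on both strands (RefSeq sequences, build GRCh38.p14). Of the 73 genes, 63 were matched to a promoter. The NRF1 motif GCGCATGCG lay in 9 of 63 (14.29%), against 2.10% of all 27305 promoters and 4.44% of those of genes at level 10 or more. This motif overlaps its own reverse complement, so that a run of both was counted as 1 promoter. The YY1 motif ATGGCGGC lay in 10 of 63 (15.9%), against 3.21% of all promoters and 8.19% of those at level 10 or more. The ETS motif CCGGAAG lay in 17 of 63 (27.0%), against 10.7% of all promoters, but also in 25.0% of those at level 10 or more. TAATTA, the core bound by many homeodomains, lay in 0 of 63 windows, against 4.98% of all promoters and 1.91% of those at level 10 or more. These matches are letters in a window and do not show binding. The median GC content was 61% in the 63 windows, 64% in those at level 10 or more and 58.3% in all. The 150 bases before the start are printed below for 4 genes with the NRF1 motif, to show the element in subunits of both ends of the pathway. Capitals mark the NRF1 motif on either strand. ATP5F1C, which encodes the central shaft of ATP synthase, holds it on both strands at once (chr10:7788027-7788176, plus strand). ATP5MC2 encodes a precursor of the c subunit (chr12:53676084-53676233, minus strand). NDUFS6 (chr5:1801257-1801406, plus strand) and NDUFS7 (chr19:1383757-1383906, plus strand) encode an accessory and a core subunit of the arm of complex I that lies in the matrix.
ATP5F1C: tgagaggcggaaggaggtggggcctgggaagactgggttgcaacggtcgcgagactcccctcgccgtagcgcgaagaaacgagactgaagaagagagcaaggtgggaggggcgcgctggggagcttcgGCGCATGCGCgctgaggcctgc
ATP5MC2: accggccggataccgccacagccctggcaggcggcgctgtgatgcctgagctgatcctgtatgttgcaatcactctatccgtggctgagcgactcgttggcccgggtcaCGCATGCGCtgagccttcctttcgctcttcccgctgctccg
NDUFS6: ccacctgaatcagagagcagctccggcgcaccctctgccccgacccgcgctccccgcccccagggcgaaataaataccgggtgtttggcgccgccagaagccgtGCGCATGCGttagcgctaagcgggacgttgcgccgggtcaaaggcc
NDUFS7: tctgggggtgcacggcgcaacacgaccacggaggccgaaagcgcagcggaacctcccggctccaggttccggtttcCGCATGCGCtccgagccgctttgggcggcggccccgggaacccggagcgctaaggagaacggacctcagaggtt
The differences of these 4 genes were 0.05, 0.13, -0.04 and -0.06 in the order printed. Over the 9 genes with the NRF1 motif the median was -0.01, with a range of -0.09 to 0.16, and over the 51 genes above the threshold without it the median was 0, with a range of -0.16 to 0.16.

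Transcripts of oxidative phosphorylation subunits were bright on both arrays. Each gene was read by its brightest probe set. Of the 73 genes, 69 passed the threshold and 61 (88.4% of the 69) were at level 10 or more, a level reached by 15.7% of all 12135 genes above the threshold. The median level of complex I was 10.90 with siHLX and 10.90 with siCTR. Complex III had 11.46 on both arrays. Complex IV had 11.67 with siHLX and 11.71 with siCTR, and complex V had 12.00 with siHLX and 11.95 with siCTR. The ranges of the complexes overlapped, from 9.065 to 12.09 in complex I, 11.08 to 11.98 in complex III, 5.195 to 12.91 in complex IV and 5.12 to 13.22 in complex V. Probe sets differ in how well they bind their target, so that this order is one of signal and not of transcript number.

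**Figure D1:**
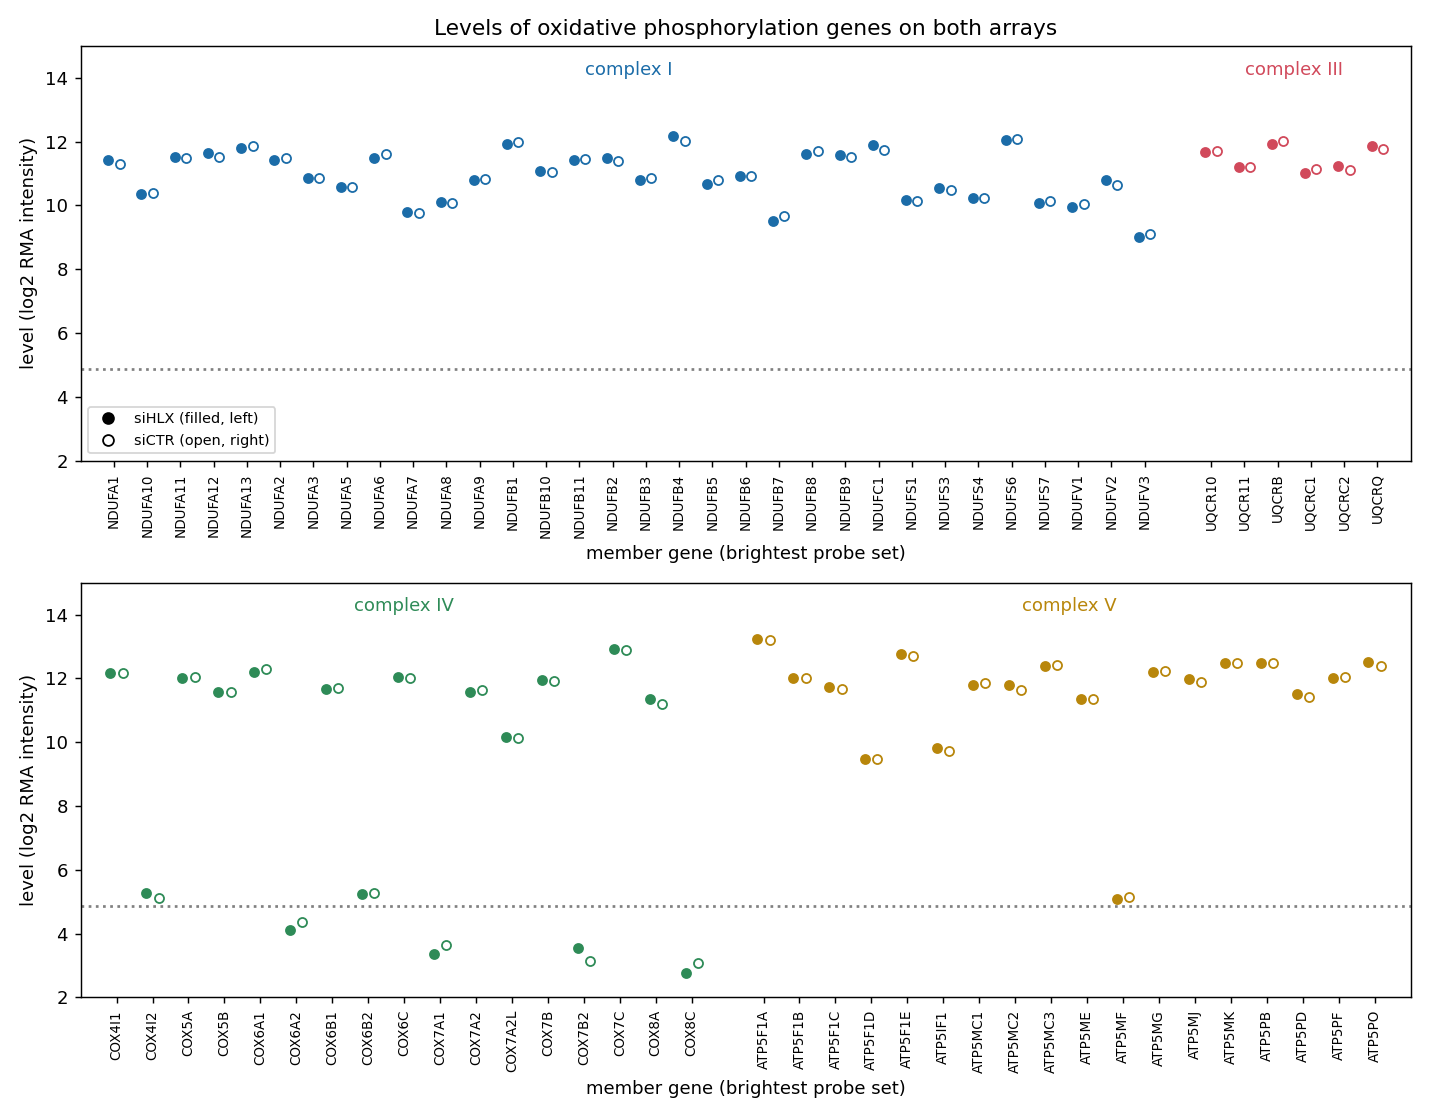
Level (log2 intensity) of each of the 73 genes by complex, with siHLX as the filled point on the left and siCTR as the open point on the right; the dotted line is the threshold of 4.865. The points of a gene lie close together on both arrays, and the 4 genes under the line are isoforms of complex IV.

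The siHLX and siCTR arrays differed little in these genes. Over the 69 genes above the threshold the median difference was -0.01, or 99.3% of the siCTR level, and the same median of -0.01 was found over all 12135 genes. With siHLX, 30 genes were higher and 35 lower, against 47.4% higher and 50.2% lower among all genes above the threshold. None of the 69 was 1.2-fold higher or lower, where 12% of all genes were higher by this factor and 12.6% were lower by it. Likewise none was 2-fold higher or lower, against 0.832% of all genes. Differences ran from -0.16 to 0.16 with an SD over genes of 0.077, whereas they ran from -2.35 to 1.55 over all genes, with an SD of 0.278. At 1.1-fold, a limit chosen after the values were seen, 5 of 69 were higher and 1 was lower, against 24.6% and 25.7% of all genes. The count of lower genes depended on the probe set used, with 7 higher and 6 lower when the probe sets of a gene were averaged and 7 higher and 5 lower on plain _at probe sets alone. These directions depend on the scale, because scaling to equal poly-A spike controls would add 0.29 to every difference and place all 69 genes higher with siHLX. Signs and counts of higher and lower genes below are on the deposited scale. The median of all genes moved to 0.28 under that scaling, which shifts each gene by the same amount.

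The spread of a difference shrinks as the level grows, so the bright genes were also set against bright genes. At level 10 or more, 27 of the 61 genes were higher and 31 lower, against 44.4% and 52.1% of all 1900 genes at this level. The SD over the 61 genes was 0.073, against 0.116 over the 1839 genes at this level outside the complexes. Within 1.1-fold lay 63 of the 69 genes above the threshold (91.3%), against 49.7% of all genes, and 57 of the 61 at level 10 or more (93.4%), against 79.8%. At least 1.1-fold higher were 4 of the 61 and lower 0, against 8.42% and 11.8%. At 1.2-fold 0 of 61 were higher and 0 lower, against 1.32% and 1.32%, and at 2-fold 0 of 61 moved either way, against 0%. In narrower bins the share within 1.1-fold was 93.3% of 15 subunit genes against 74.6% of 1044 others at levels of 10 to 11, 93.3% of 30 against 82.2% of 512 at 11 to 12, and 93.8% of 16 against 91.5% of 283 at 12 and more. The gap between subunit genes and others was thus smallest among the brightest. No test can be given for these shares, since genes of 1 array pair are not replicates.

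**Figure D2:**
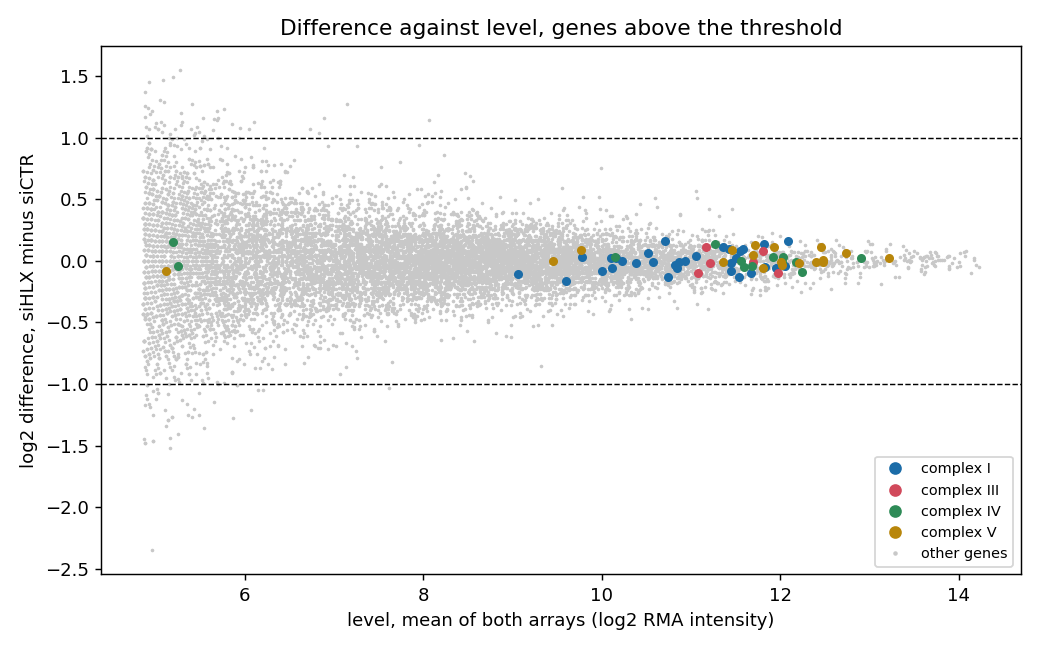
Log2 difference (siHLX minus siCTR) against level for the 69 genes above the threshold, coloured by complex, and all other genes above it in grey; dashed lines mark 2-fold. The coloured points keep between -0.16 and 0.16, and most of them sit in the narrow right part of the cloud.

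In each complex the differences centred close to 0. For the counts below, the shares over all genes above the threshold were 47.4% higher and 50.2% lower. Complex I had a median of -0.01 with an SD over genes of 0.086 (n = 32 genes), and 13 genes were higher and 17 lower with siHLX. In complex III the median was -0.015 with an SD of 0.088 (n = 6 genes), with 2 higher and 4 lower. Complex IV stood at 0 with an SD of 0.069 (n = 13 genes), with 6 higher and 6 lower, and complex V at 0.005 with an SD of 0.062 (n = 18 genes), with 9 higher and 8 lower. The medians of the 4 complexes thus lay within 0.02 of each other, and this difference was not tested. Within 1.1-fold lay 28 of 32 genes of complex I, 6 of 6 of complex III, 11 of 13 of complex IV and 18 of 18 of complex V.

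**Figure D3:**
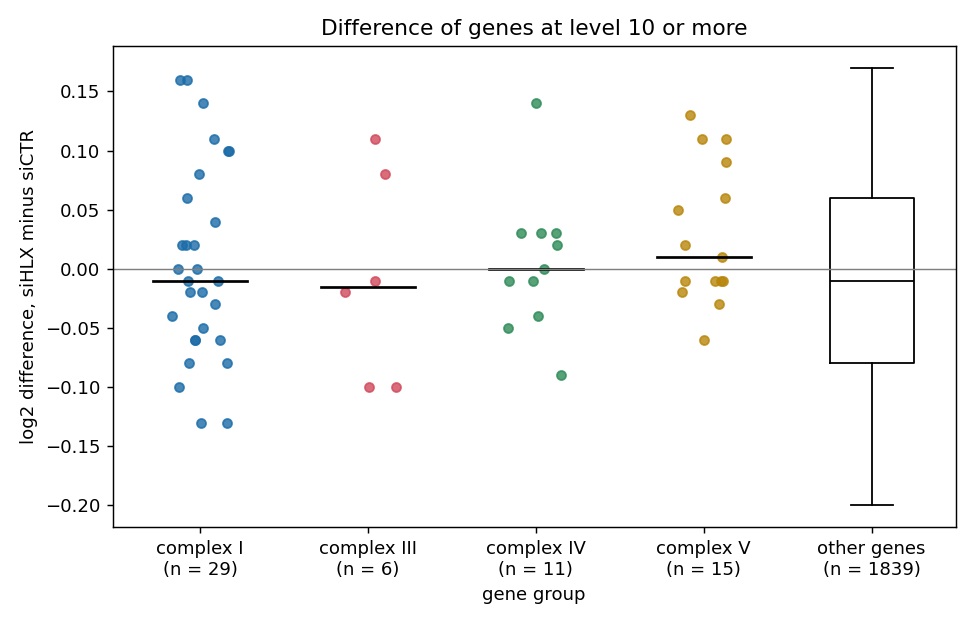
Log2 difference (siHLX minus siCTR) of genes at level 10 or more; each point is a gene of a complex with the median as a line, and the box at the right shows the 1839 other genes with quartiles, median and whiskers from the 5th to the 95th percentile. All 4 complexes spread around 0 within the whiskers of the other genes.

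Complex I receives its electrons at the tip of the matrix arm. NDUFV1, which binds NADH and the flavin, was at 9.96 with siHLX and 10.04 with siCTR, a difference of -0.08. NDUFV2, its iron-sulfur partner, was at 10.79 with siHLX and 10.63 with siCTR (0.16), among the highest differences of the complex. The 2 proteins form 1 module, and on the deposited scale their transcripts had opposite signs. NDUFV2 was read by 1 probe set, and the contrast between the 2 genes was not tested. NDUFS1, the large iron-sulfur subunit, was at 10.17 with siHLX and 10.15 with siCTR. NDUFS3 was at 10.55 with siHLX and 10.49 with siCTR. NDUFS7, which holds the cluster next to ubiquinone, was at 10.09 with siHLX and 10.15 with siCTR. Over these 5 core subunits, 3 were higher and 2 lower, with a median of 0.02. The shares over all genes above the threshold were 47.4% higher and 50.2% lower.

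Accessory subunits surround the core of complex I and serve in its assembly and stability. Of the 9 in the matrix arm 2 were higher and 6 lower (median -0.03). Of the 18 in the membrane arm 8 were higher and 9 lower (median -0.005). These counts stand against 47.4% higher and 50.2% lower among all genes above the threshold, and were not tested. NDUFA6 was at 11.48 with siHLX and 11.61 with siCTR (-0.13), with 0.09 on its dimmer probe set, and NDUFB5 of the membrane arm at 10.68 with siHLX and 10.81 with siCTR (-0.13). The lowest difference belonged to NDUFB7, a membrane arm subunit on the side of the intermembrane space, with 9.52 with siHLX and 9.68 with siCTR (-0.16). It was the only gene of the 69 at least 1.1-fold lower in its brightest probe set. At the other end, NDUFB4 was at 12.17 with siHLX and 12.01 with siCTR (0.16), and NDUFC1 at 11.89 with siHLX and 11.75 with siCTR (0.14), both in the membrane arm. The dimmer probe sets of both had the other sign, -0.35 in NDUFB4 and -0.18 in NDUFC1. High and low values thus occurred side by side in the same arm.

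In complex III, UQCRC1 and UQCRC2 encode the paired core proteins that face the matrix. UQCRC1 was at 11.03 with siHLX and 11.13 with siCTR (-0.10), and UQCRC2 at 11.23 with siHLX and 11.12 with siCTR (0.11). A second bright probe set of UQCRC2 read 10.56 with siHLX and 10.67 with siCTR (-0.11), so that the sign of this gene depended on the probe set. UQCRB, a small subunit at the ubiquinone site, was at 11.93 with siHLX and 12.03 with siCTR (-0.10), while another bright probe set read 11.89 with siHLX and 11.88 with siCTR. UQCRQ was at 11.85 with siHLX and 11.77 with siCTR (0.08). UQCR10 and UQCR11, small subunits of the membrane part, differed by -0.01 and -0.02. The Rieske protein gene UQCRFS1 and the hinge protein gene UQCRH were not analysed here.

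Complex IV has subunits used in most tissues and isoforms that replace them in some. The 11 genes placed with the general subunits had a median of 0, with 5 higher and 5 lower. Over all genes above the threshold 47.4% were higher and 50.2% lower. COX7A2L (0.03), a relative of COX7A2, was counted among the 11. COX4I1 and COX5A, which join the catalytic core early in assembly, were each 0.01 lower, at 12.17 and 12.02 with siHLX and 12.18 and 12.03 with siCTR. COX5B was at 11.56 on both arrays. These 3 genes thus differed by at most 0.01 in their brightest probe sets. COX8A, a small subunit, was at 11.34 with siHLX and 11.20 with siCTR (0.14), and COX6A1 was at 12.20 with siHLX and 12.29 with siCTR (-0.09). COX7B was at 11.94 with siHLX and 11.91 with siCTR. In their brightest probe sets, all of the 11 genes apart from COX8A and COX6A1 lay within 0.05 of 0. Some dimmer probe sets above the threshold lay farther off, with -0.13 in COX5B, -0.39 in COX5A and -1.02 in COX4I1.

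The tissue isoforms of complex IV stayed dim. COX6A2, the heart and skeletal muscle partner of COX6A1, was at 4.10 with siHLX and 4.35 with siCTR. COX7A1, the muscle partner of COX7A2, was at 3.36 with siHLX and 3.64 with siCTR, while COX7A2 read 11.57 with siHLX and 11.62 with siCTR. The testis isoforms COX7B2 (3.54 with siHLX and 3.13 with siCTR) and COX8C (2.76 with siHLX and 3.09 with siCTR) were under the threshold as well. Differences of up to 0.41 in these 4 genes lay below the threshold and were not counted. COX4I2, the isoform known from lung and from hypoxia, was just above the threshold at 5.27 with siHLX and 5.12 with siCTR (0.15), and the testis isoform COX6B2 was at 5.23 with siHLX and 5.27 with siCTR.

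In complex V the F1 head makes ATP. ATP5F1A (alpha) was at 13.23 with siHLX and 13.21 with siCTR, the strongest signal of the 73 genes, and ATP5F1B (beta), which carries the catalytic sites, was at 12.01 with siHLX and 12.02 with siCTR. ATP5F1C (gamma) was at 11.72 with siHLX and 11.67 with siCTR, and its 4 probe sets ranged from 0 to 0.05. ATP5F1D (delta) read 9.46 on both arrays, and ATP5F1E (epsilon) 12.77 with siHLX and 12.71 with siCTR. The brightest probe sets of the 5 head genes thus kept within 0.06 of 0. Dimmer ones lay farther off, with 0.27 in ATP5F1D and -0.78 in ATP5F1E.

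The c ring is built from 1 mature protein encoded by 3 genes. ATP5MC1 was at 11.78 with siHLX and 11.84 with siCTR (-0.06), ATP5MC2 at 11.78 with siHLX and 11.65 with siCTR (0.13), and ATP5MC3 at 12.40 with siHLX and 12.41 with siCTR (-0.01). ATP5MC2 had the highest difference of the complex. A second bright probe set of ATP5MC3, at 12.15 with siHLX and 12.08 with siCTR, gave 0.07, so that its sign depended on the probe set. Of the peripheral stalk, which keeps the head from turning, ATP5PO (OSCP) was at 12.51 with siHLX and 12.40 with siCTR (0.11) and ATP5PD at 11.51 with siHLX and 11.42 with siCTR (0.09). The other two stalk genes, ATP5PB and ATP5PF, differed by 0.01 and -0.03. In the stalk 3 of 4 genes were higher with siHLX, each by 0.11 or less, against 47.4% of all genes above the threshold. ATP5MJ, a small membrane subunit, was at 11.99 with siHLX and 11.88 with siCTR (0.11), and its second probe set gave 0.09. ATP5IF1, the inhibitor that blocks ATP hydrolysis, was at 9.82 with siHLX and 9.73 with siCTR (0.09), and its other probe sets gave 0.23 and -0.01. ATP5MF was read by a single dim probe set at 5.08 with siHLX and 5.16 with siCTR, so no firm value can be given for it. A brighter probe set, annotated to both ATP5MF and ARMC2-AS1 and so left out, was at 11.88 with siHLX and 11.82 with siCTR.

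Several probe sets of a gene read the same RNA sample and show how far readings of a gene can differ, though they may read different transcripts of it. Of the 73 genes, 42 had at least 2 probe sets. At level 10 or more, 13 genes had at least 2, and their pooled SD within a gene was 0.058 (n = 30 probe sets), while the SD between the 61 genes was 0.073, a ratio of 1.26. Over all genes at this level the SD within a gene was 0.098. In 5 of the 13 genes (38.5%) all bright probe sets had 1 sign, against 48.7% of all 460 such genes. The largest gap within a gene was 0.22, in UQCRC2, wider than the difference of any of the 69 genes. The spread between cultures cannot be read from these values. For 35 of the 69 genes the brightest probe set had the suffix _s_at and for 5 the suffix _x_at, which mark probes shared by several transcripts, so that signal from close copies cannot be told apart in these.

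Dim probe sets of the same genes gave much larger values. COX4I1 had a probe set at 5.12 with siHLX and 6.14 with siCTR (-1.02), the only 2-fold value among the 119 probe sets above the threshold, while its bright probe sets gave -0.01 and 0.04. ATP5F1E had one at 5.34 with siHLX and 6.12 with siCTR (-0.78), against 0.06 on the bright one. NDUFB4 had 0.16 on the bright and -0.35 on the dim probe set, and NDUFV3 had -0.11 on the brighter and 0.38 on the dimmer one. In each of these 4 genes the brighter probe set lay nearer to 0. Over all probe sets of the complexes the SD was 0.41 between the threshold and level 6, 0.20 from 6 to 8, 0.11 from 8 to 10 and 0.074 at 10 and more. The median gap in level between the brightest and the dimmest probe set of a gene was 5.53.

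Genes whose probe sets above the threshold all had 1 sign numbered 11 of 32 (34.4%), against 37.1% of all 5869 genes with at least 2 such probe sets. The most positive means were those of ATP5PD (0.265 over probe sets of 0.09 and 0.44), ATP5PO (0.18 over 0.11, 0.04 and 0.40) and NDUFA7 (0.17 over 0.03 and 0.31), and the most negative those of COX5A (-0.20 over -0.01 and -0.39), NDUFV1 (-0.19 over -0.08 and -0.30) and NDUFA10 (-0.18 over -0.02, -0.14 and -0.39). In all 6 the largest value came from the dimmest probe set above the threshold. Narrow ranges were found in NDUFA11, with 3 probe sets from 0.02 to 0.04, in ATP5MJ, with 0.09 and 0.11, and in ATP5MG, a membrane subunit with a part in ATP synthase dimers, with 4 from -0.08 to -0.02. In ATP5ME, another such membrane subunit, both probe sets were lower with siHLX (-0.01 and -0.11).

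**Figure D4:**
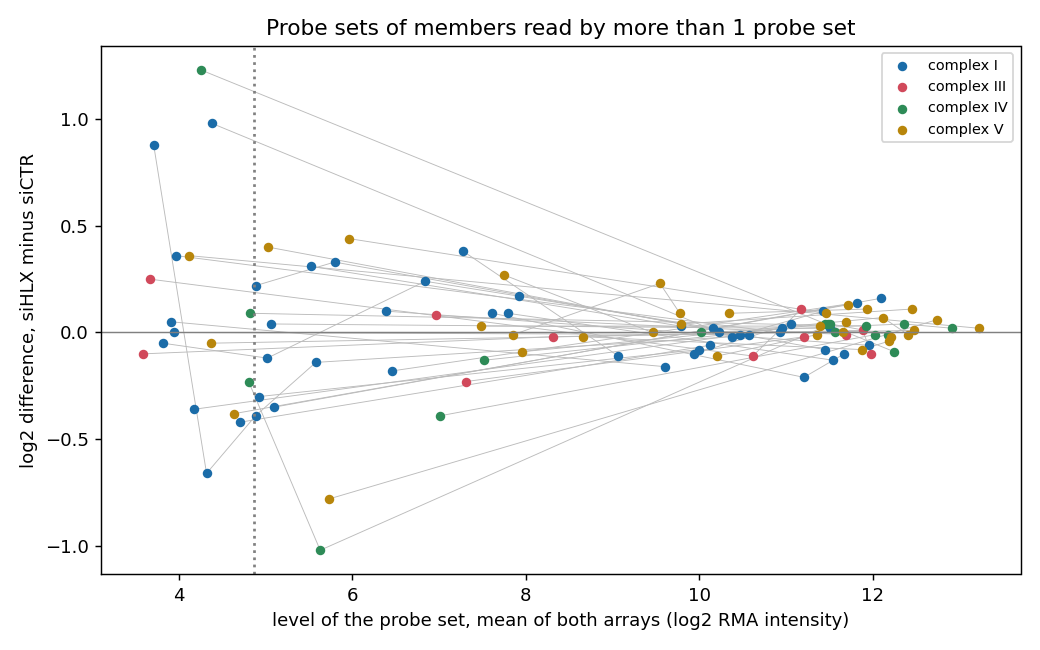
Log2 difference (siHLX minus siCTR) against level of each probe set of the 42 genes with more than 1, with grey lines joining probe sets of a gene and a dotted line at the threshold of 4.865. Points fan out to the left, where they reach -1.02 above the threshold and 1.23 below it, and close up to the right.

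Related genes were placed beside the subunits, each read by its brightest probe set. Among all genes above the threshold 47.4% were higher and 50.2% lower. Of 13 other genes, subunits and electron carriers with other symbols and enzymes of ubiquinone synthesis, 7 were higher and 6 lower (median 0.01), among them CYCS, the electron carrier cytochrome c, at 13.08 with siHLX and 13.05 with siCTR. Of complex II, which feeds electrons from succinate, 0 of 3 were higher and 3 lower (median -0.06). SDHD, one of its membrane anchors, was at 10.20 with siHLX and 10.37 with siCTR. SDHA differed by only -0.01, and the 6 probe sets of SDHC ran from -0.57 to 0.13. The list held 4 genes, of which 3 had a probe set annotated to them alone. Of the complex I assembly genes 7 of 17 were higher and 10 lower (median -0.02), and of those for complexes III and IV 12 of 28 were higher and 14 lower (median -0.005). The assembly genes of complex V had 2 of 7 higher and 5 lower (median -0.08), led by TMEM242 with 7.12 with siHLX and 7.56 with siCTR (-0.44), whose other probe set gave 0.06. Over these assembly genes differences ran from -0.44 to 0.23, against -0.16 to 0.16 over the 69 subunit genes, with levels not matched and no test possible.

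Factors that act on these promoters or on mitochondrial DNA were higher in 11 of 17 and lower in 5 (median 0.02), against 47.4% and 50.2% of all genes. NRF1 was at 7.84 with siHLX and 7.83 with siCTR, and YY1 at 11.89 with siHLX and 11.90 with siCTR. TFAM, which packs mitochondrial DNA and takes part in its transcription, was at 10.95 with siHLX and 10.93 with siCTR. GABPA, the DNA-binding part of the ETS factor, was at 8.56 with siHLX and 8.32 with siCTR (0.24), and its second probe set gave 0.10. In their brightest probe sets the factors named by the 3 motifs thus differed by at most 0.24. Over all probe sets above the threshold, differences ran from -0.23 to 0.08 in NRF1, -0.37 to 0.06 in TFAM and -0.13 to 0.18 in YY1. Genes of mitochondrial protein import were lower in 15 of 19 and higher in 3 (median -0.06), against 50.2% lower among all genes. TOMM22, an outer membrane receptor, was at 10.04 with siHLX and 10.36 with siCTR (-0.32), but other probe sets of it reached 0.16, and TIMM22 was at 8.24 with siHLX and 8.53 with siCTR (-0.29). Mitochondrial carriers, uncoupling proteins and the outer membrane channels VDAC1, VDAC2 and VDAC3 were higher in 10 of 14 (median 0.08), against 47.4% of all genes. Several of them had probe sets of both signs, such as SLC25A13 (-0.18 to 0.58), VDAC3 (-0.09 to 0.13) and MPC2 (-0.23 to 0.26). SLC25A11, the oxoglutarate carrier, was at 8.19 with siHLX and 7.82 with siCTR (0.37), while its other probe set gave -0.27. Poly-A spike scaling turns the medians of all lists here positive, to between 0.21 and 0.37. The 13 genes encoded by mitochondrial DNA were not analysed as a list. At least ATP6, a complex V subunit among them, counted with the genes outside the complexes, at level 13.675 with a difference of 0.07.

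**Figure D5:**
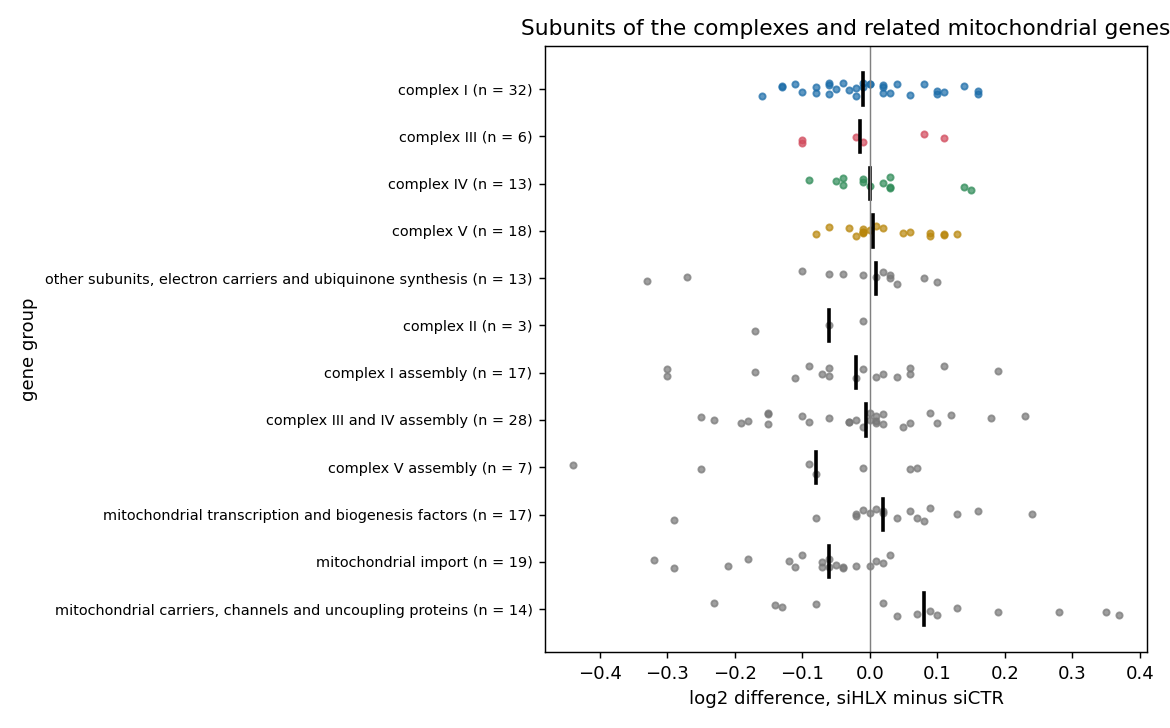
Log2 difference (siHLX minus siCTR) of each gene above the threshold in the 4 complexes and in 8 lists of related mitochondrial genes, with the median as a black bar. The complexes keep between -0.16 and 0.16, and medians of the lists run from -0.08 (complex V assembly) to 0.08 (carriers, channels and uncoupling proteins); under poly-A spike scaling all would lie above 0.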

How the data were processed

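The 2 arrays were grouped by the siRNA named in the labels. The authors deposited 1 log2 value per probe set, after RMA background correction and quantile normalisation with affy and limma (versions: not given in the sources used here). After sorting, the arrays differed by 0.06 or less. Leaving controls aside, the platform annotation gave a single gene to 41091 of 54613 probe sets, several to 1801 and no name to 11721, and RefSeq (GRCh38.p14) held 41037 of the 41091.

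Differences were siHLX minus siCTR. A gene was read by its brightest probe set (mean of both arrays) and used when this mean reached 4.865, the median level of the array without controls. With 1 array per group no test was run, and the number of arrays limits the precision. An SD over genes or over probe sets of a gene is not a replicate error. The rule for named genes took HLX, the 2 highest and 2 lowest genes of each complex, core, complex III, F1 head and c ring genes, tissue isoforms with their partners, genes whose probe sets agreed in sign or differed by over 0.5, and the 2 highest and 2 lowest of each related list, of which the text gives examples. Other genes named were chosen after their values were seen. Members and lists were chosen with earlier results of these data known. Alternatives were 6 scalings of the arrays, 2 other ways to read a gene and 2 other thresholds. The 1.1-fold limit and the comparison at level 10 or more were added after seeing the data. The steps were tested on simulated data and run in Python 3.11.15 with numpy 2.4.6 and pandas 2.3.3.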

Additional observations from a re-analysis of the deposited data

How the results depend on the processing

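No paired analysis was possible because each siRNA had 1 array, and for the same reason no array could be left out. A value counts as moved when it shifts by more than 0.058, the pooled SD between bright probe sets of a gene, and a count when it changes by over 1.5 times. Scaling to equal poly-A spike controls (mean difference -0.29, 23 of 24 lower on the siHLX array) moved the median of all 69 genes to 0.28, of complex I to 0.28, of complex III to 0.27, of complex IV to 0.29 and of complex V to 0.29, with 69 genes higher, 0 lower and 47 at least 1.2-fold higher. Scaling to hybridisation controls gave 47 higher and 22 lower. Averaging the probe sets of each gene gave 1 gene at least 1.2-fold higher and 2 lower, only plain _at probe sets 3 higher and 3 lower with 1 of them 2-fold (COX4I1, from its dim probe set), and no level threshold 1 higher and 2 lower. Medians of the complexes stayed within 0.058 under all alternatives other than the poly-A scaling, and the counts at 1.2-fold were 0 under median centring, the ratio to the sample mean, lowess, repeated quantile normalisation, hybridisation controls and the stricter threshold. The count at least 1.1-fold lower, 1 on the deposited scale, was 6 with averaged probe sets, 5 with plain _at probe sets, 4 without a threshold and 0 with either spike scaling. Of 669 alternative values for the 69 genes, 563 stayed within 0.058 and 106 moved, 69 of them under poly-A scaling, where 35 changed sign, and the rest with averaged or plain _at probe sets. Averaging moved 19 and turned the sign of 7 of these (ATP5F1E, NDUFA2, NDUFB1, NDUFB10, NDUFB4, NDUFC1 and NDUFV3). Plain _at probe sets moved 18 and turned 10 (ATP5IF1, ATP5MC3, NDUFA2, NDUFA6, NDUFB1, NDUFB2, NDUFB4, NDUFV3, UQCR10 and UQCRC2).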

Other observations

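A further 9 probe sets were annotated to several genes of which at least 1 had a subunit symbol. They entered no gene value, and only the one shared by ATP5MF is named above. Their levels ran from 7.055 to 12.535 and their differences from -0.21 to 0.06, with a median of -0.03.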
